A study of Caenorhabditis elegans with 68 samples.

Results

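The comparison described here sets newly hatched Caenorhabditis elegans larvae of the L1 stage that lack the microRNA gene mir-85 against heterozygous larvae of the same kind of mother, after maternal exposure to 300 mM NaCl. It holds 6 of the 68 samples of the series, all 6 chosen by their labels and by no measured value. The tested larvae, called F1KO, carry mir-85(n4117)/ mir-85(n4117) (3 libraries), and the larvae they are set against, called F1het, carry 1 copy of mir-85(n4117) over the balancer mIn1, which bears mIs14 and dpy-10(e128) (3 libraries). Both come from strain MHE324 and, as the sample names put it, from heterozygous mothers (P0het). mIn1 is an inverted stretch of chromosome II that balances the deletion, and mIs14 on it is a green fluorescent protein (GFP) array driven by the promoters of myo-2 and pes-10 and by a gut enhancer from F22B7.9. The groups therefore differ in mir-85, in the balancer, in the reporter and in dpy-10(e128) at once, and these cannot be told apart in this comparison. The same genotypes after exposure of mothers to 50 mM NaCl (3 libraries each) and, from another experiment, mir-85(n4117) larvae of strain MT12999 (2 libraries) and wild-type N2 larvae (WT, 2 libraries) at 300 mM serve as points of reference.

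A microRNA binds messenger RNAs through its seed near the 5′ end and lowers their stability or translation. Larvae can receive small RNAs from the mother through the oocyte as well as make their own, so offspring of heterozygous mothers without a zygotic copy of the gene separate the contribution of the offspring from that of the mother. The gene hrg-1 encodes a heme transporter of the intestine, which C. elegans needs because it cannot make heme and takes it from food, and other samples of the series carry a mutated mir-85 seed site in hrg-1. L1 larvae build a new cuticle before each moult, and genes for cuticle collagens, moulting factors and pharyngeal cuticle proteins switch on and off together with each larval stage.

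Levels are in TPM, a length-scaled share of all transcripts, as deposited, and a difference is that of log2(TPM + 1), a scale that compresses the changes of weakly expressed genes. TPM summed to 961877 to 978565 in the 6 libraries, and 13954 to 14543 genes reached 1 TPM in each. TPM keep no sequencing depth, so the precision was judged from the spread between libraries. The libraries are named biological replicates, but no label ties them to separate cultures. The p-values therefore describe the spread among these libraries, which may be technical. A gene passed the test when its adjusted p, from limma with Benjamini-Hochberg adjustment over the 15454 genes tested, was under 0.05. RNA was taken from whole larvae, so fewer cells of a type and less RNA per cell cannot be told apart.

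Few transcripts separated the groups. Of the 15454 genes, 2 rose and 2 fell in F1KO larvae, which is 0.0259% of all genes tested (0.0129% in each direction). The 2 that fell were the reporter line s65cGFP and pes-10, whose promoter drives the reporter, and the 2 that rose were short noncoding RNAs. At an unadjusted p under 0.05, 618 genes were higher (4.00% of those tested) and 257 lower (1.66%) in F1KO larvae. The median difference over all genes was 0.04, and 59.3% of genes had a value above 0. The 3 libraries of one group lay wholly above those of the other in 1476 genes in favour of F1KO (9.55%) and in 628 genes in favour of F1het (4.06%).

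The reporter genes gave a check of the labels. pes-10 (WBGene00003983, chromosome II, 12846191 to 12847836, WBcel235), a gene of the early embryo, had 3.71, 3.19 and 3.13 TPM in the F1KO libraries, against 84.6, 68.4 and 57.1 TPM in the F1het libraries. The groups did not overlap, and F1KO stood at 4.77% of the F1het mean (log2 difference -4.02 ± 0.34 SE, adjusted p = 0.00191 by limma). In the n4117 and WT libraries of the other experiment, neither of which carries the balancer, pes-10 was listed at 0 to 0.03 TPM. The s65cGFP line had 61.9, 41.7 and 66.3 TPM in F1KO larvae, against 619, 591 and 507 TPM in F1het larvae. It was lower in 3 of 3 F1KO libraries, at 9.90% of the F1het mean (-3.34 ± 0.34, adjusted p = 0.00474 by limma), and it was listed at 0 in every n4117 and WT library at 300 mM. Each F1KO library thus held the reporter at a level that the strains without it did not show, and the source of those transcripts was not tested. An exact permutation test, which with 3 against 3 libraries cannot go below p = 0.1, gave p = 0.1 for pes-10 and for s65cGFP (adjusted p = 0.156 over 14 such tests).

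F22B7.9 (WBGene00017698, III, 8652578 to 8653925), the gene whose enhancer drives the reporter in the gut, had 71.4, 85.6 and 76.2 TPM in F1KO larvae, against 261, 307 and 207 TPM in F1het larvae. Its groups did not overlap, but the difference of -1.70 ± 0.24 missed the threshold (adjusted p = 0.0513 by limma). The F1KO values lie near those of the n4117 libraries (61.7 and 70.4 TPM) and the WT libraries (61.7 and 59.9 TPM). Muscle myosin myo-2, the third driver of mIs14, had 219, 188 and 338 TPM in F1KO larvae, against 102, 178 and 250 TPM in F1het larvae. Here the groups overlapped (0.53 ± 1.03, adjusted p = 0.996 by limma). The other reporter lines of the table, CEGFP and mCherry, were listed at 0 in all 6 libraries.

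At 50 mM, in libraries that the 300 mM difference does not use, pes-10 passed and s65cGFP did not. pes-10 had 17.7, 12.1 and 4.77 TPM in F1KO larvae, against 82.8, 95.7 and 72.0 TPM in F1het larvae (-2.90 ± 0.34, adjusted p = 0.0245 by limma). s65cGFP had 298, 181.46 and 91.2 TPM in F1KO larvae, against 860, 1124 and 910 TPM in F1het larvae (-2.48 ± 0.34, adjusted p = 0.0606 by limma). At 50 mM the F1KO libraries spread over a wider range than at 300 mM, with replicate 1 the highest for both. The difference of the genotype differences between 300 and 50 mM was -1.11 ± 0.48 for pes-10 and -0.85 ± 0.48 for s65cGFP and did not pass for either (adjusted p of 0.9997 for both by limma, unadjusted p = 0.0393 and 0.105). The pes-10 call at 50 mM was kept without F1KO replicate 1 (adjusted p = 0.00908 by limma) and without F1KO replicate 3 (0.00375). It was lost without F1KO replicate 2 (adjusted p = 0.227) or without F1het replicate 1 (0.141), 2 (0.206) or 3 (0.131), and in a fit of only the libraries at 50 mM (0.400). s65cGFP passed at 50 mM without F1KO replicate 1 (-2.89, adjusted p = 0.00908 by limma).

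**Figure D1:**
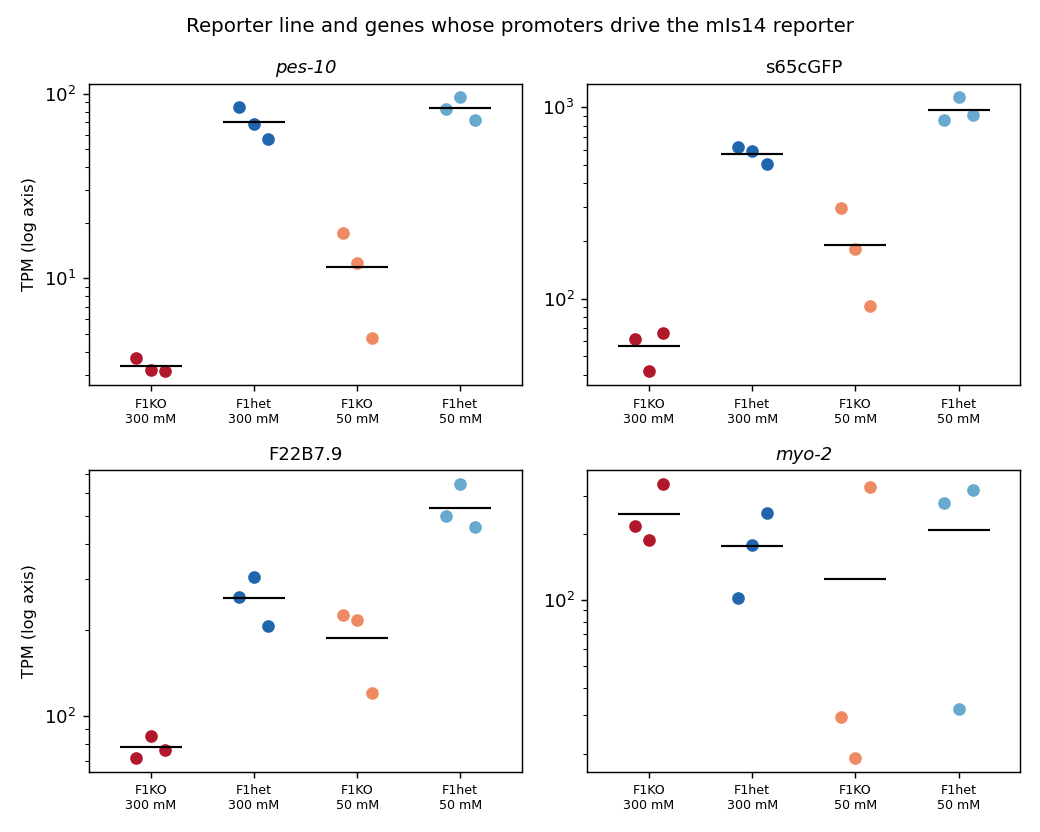
TPM on a log axis in each library (points; line, mean of 3) for pes-10, the reporter line s65cGFP, F22B7.9 and myo-2, in F1KO and F1het larvae at 300 and 50 mM NaCl. pes-10, s65cGFP and F22B7.9 are lower in every F1KO library at both NaCl levels, and myo-2 overlaps.

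The deletion itself could not be read from the table, since mir-85 (WBGene00003313, II, 8393553 to 8393658, plus strand, WBcel235) is not among its lines. The gene lies inside F49E12.8 (II, 8392568 to 8394305), which is annotated on the opposite strand. F49E12.8 had 2.09, 1.60 and 1.09 TPM in F1KO larvae, against 2.26, 2.26 and 1.86 TPM in F1het larvae. The values overlapped (-0.29 ± 0.18, adjusted p = 0.962 by limma; exact permutation p = 0.2). At 50 mM F49E12.8 had 1.51, 1.36 and 2.04 TPM in F1KO larvae, against 2.35, 2.39 and 2.59 TPM in F1het larvae. There the groups did not overlap, with F1KO lower, and the difference did not pass (-0.39 ± 0.18, adjusted p = 1 by limma, unadjusted p = 0.0525; exact permutation p = 0.1, the smallest possible). In the other experiment, F49E12.8 had 0.71 and 1.75 TPM in n4117 larvae, against 4.32 and 5.99 TPM in WT larvae (-1.49 ± 0.24, adjusted p = 0.0551 by limma), so F1het larvae were closer to n4117 than to WT in level. The difference between the 2 differences was 1.21 ± 0.31 (adjusted p = 0.634 by limma). The neighbours F49E12.7, F49E12.9, F49E12.10 and F49E12.12, all within 10 kb of mir-85, had differences between -0.26 and 0.33 with overlapping groups. dpy-10, a cuticle collagen gene that carries the e128 mutation on the balancer, had 3.60, 1.14 and 1.59 TPM in F1KO larvae, against 0.66, 0.42 and 0.61 TPM in F1het larvae, with no overlap (0.92 ± 0.43, adjusted p = 0.876 by limma). At 50 mM dpy-10 overlapped, with 10.06, 3.13 and 5.35 TPM in F1KO larvae, against 7.49, 2.97 and 2.30 TPM in F1het larvae (0.46 ± 0.43).

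The 2 genes that rose were noncoding RNAs of about the same low level. K02C4.9 (WBGene00199712, II, 8094190 to 8094318) had 4.64, 5.6 and 2.56 TPM in F1KO larvae and was listed at 0 in the 3 F1het libraries (2.35 ± 0.25, adjusted p = 0.0061 by limma). At 50 mM the order was the other way, with 1.91, 2.36 and 2.65 TPM in F1KO larvae, against 2.92, 5.68 and 4.72 TPM in F1het larvae. The 2 genotype differences differed by 3.04 ± 0.36, which did not pass (adjusted p = 0.0582 by limma). Without F1KO replicate 1 the call at 300 mM was lost (adjusted p = 0.0833 by limma), as it was in a fit of only the 6 libraries at 300 mM (adjusted p = 0.124).

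C23H4.11 (WBGene00197362, X, 12205978 to 12206100) had 4.33, 2.79 and 3.19 TPM in F1KO larvae and was listed at 0 in the F1het libraries at 300 mM and in all 6 libraries at 50 mM (2.13 ± 0.20, adjusted p = 0.00328 by limma). It entered the test only through the 3 libraries in which it was above 0, so it had to differ, and without F1KO replicate 1, 2 or 3 it was not tested. It did not pass with a pseudocount of 0.1 in place of 1 (adjusted p = 0.236 by limma) or in a fit of only the 6 libraries at 300 mM (adjusted p = 0.0736). K02C4.9 is 129 bases long and C23H4.11 is shorter still, both below the 200 nucleotides above which RNA was kept for these libraries. C23H4.11 lies inside cab-1 on the opposite strand and K02C4.9 overlaps the noncoding K02C4.10 on the opposite strand. The libraries were strand-specific, but whether counting used the strand is not given in the sources used here, so both values are uncertain.

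**Figure D2:**
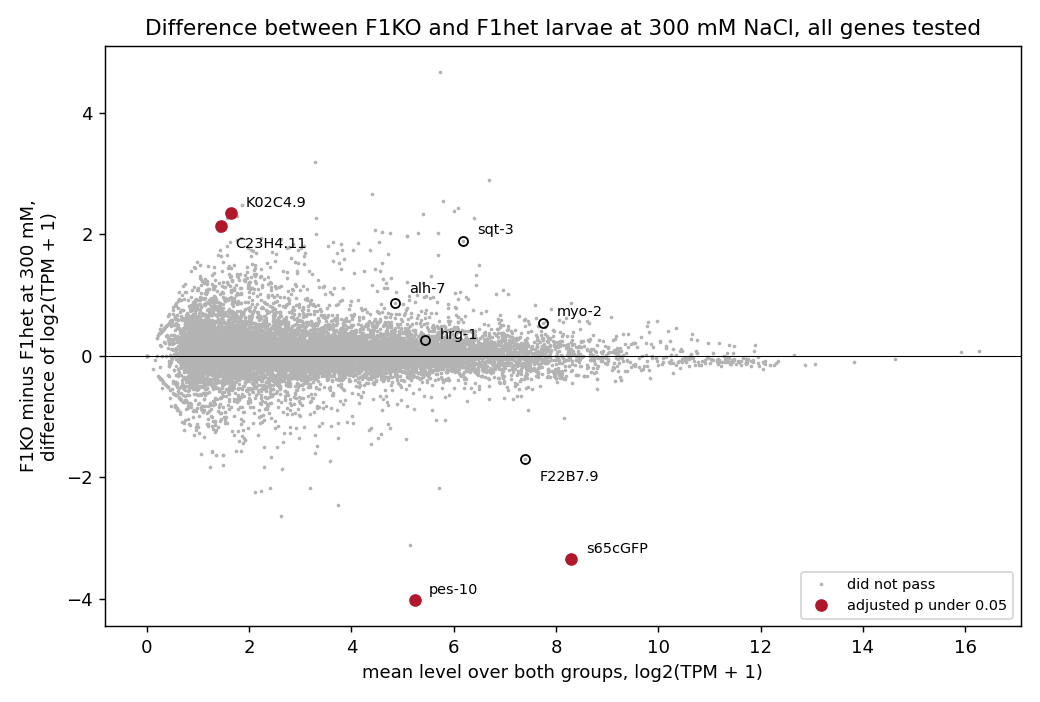
Difference of log2(TPM + 1), F1KO minus F1het at 300 mM, against the mean level over both groups, for the 15454 genes tested. Filled red points are the 4 genes that passed (K02C4.9, C23H4.11, s65cGFP, pes-10), and open circles are named genes that did not pass, with alh-7 at 0.86 and F22B7.9 at -1.70.

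Position along the chromosomes was examined next. On chromosome II, which holds both the deletion and the balancer, 2446 genes were tested, with a median difference of 0.05, and 1 rose and 1 fell. Unadjusted p was under 0.05 for 5.52% of the genes of chromosome II, against 5.66% of all genes. Within 1 Mb of mir-85, 427 genes had a median difference of 0.04, and K02C4.9 was the 1 called. Chromosome V had the highest share among the 6 chromosomes, at 7.40% of 3242 genes.

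Among protein-coding genes of C. elegans itself, the smallest p after pes-10 and F22B7.9 belonged to alh-7 (WBGene00000113, II, 13487243 to 13491786), which encodes an aldehyde dehydrogenase. It had 38.1, 35.7 and 35.1 TPM in F1KO larvae, against 20.6, 18.7 and 19.3 TPM in F1het larvae. The values were tight within each group and did not overlap, at 1.86 times the F1het mean, but they missed the threshold (0.86 ± 0.13, adjusted p = 0.0889 by limma). At 50 mM alh-7 had 27.1, 35.0 and 33.4 TPM in F1KO larvae, against 23.6, 17.3 and 21.1 TPM in F1het larvae, again with no overlap (0.60 ± 0.13, adjusted p = 0.708 by limma). In the other experiment it had 46.2 and 46.6 TPM in n4117 larvae, against 50.1 and 48.4 TPM in WT larvae (-0.08 ± 0.18), and the difference between the experiments was 0.95 ± 0.24 (adjusted p = 0.595 by limma). The F1het libraries at both NaCl levels were thus the lowest of these groups.

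The heme genes had overlapping levels for the most part. hrg-1 (X, 4008057 to 4016221) had 40.0, 52.1 and 44.9 TPM in F1KO larvae, against 48.7, 26.7 and 41.97 TPM in F1het larvae (45.7 ± 6.06 and 39.1 ± 11.26 TPM, SD, n = 3 each). F1het replicate 2 was the lowest and the other F1het values lay within the F1KO range. The difference of 0.25 ± 0.26 had a 95% interval of -0.31 to 0.82 (limma adjusted p = 0.985; exact two-sided permutation p = 0.5), and without F1het replicate 2 it was 0.01. At 50 mM hrg-1 had 11.5, 13.4 and 22.3 TPM in F1KO larvae, against 13.1, 13.8 and 17.8 TPM in F1het larvae (0.03 ± 0.26). At neither NaCl level was the difference larger than the spread between libraries. hrg-1 overlaps the antisense mop-25.1 and the noncoding R02E12.9.

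In larvae of the n4117 strain, the 2 libraries were far apart for hrg-1. It had 124 and 36.03 TPM in n4117 larvae, against 11.79 and 13.4 TPM in WT larvae at 300 mM (2.33 ± 0.43, adjusted p = 0.131 by limma). In that comparison 0.0176% of 17039 genes passed and 4.57% had an unadjusted p under 0.05. The difference between F1KO minus F1het and n4117 minus WT was -2.08 ± 0.55 (95% interval -3.25 to -0.91), which did not pass (adjusted p = 0.634 by limma; 0.0411% of genes passed and 4.94% had an unadjusted p under 0.05). It passed (-2.96, adjusted p = 0.0227) when n4117 replicate 2, the lower of the pair, was left out, in a fit that assumes the lone library to vary like the other groups. The F1het libraries at 300 mM themselves stood at 26.7 to 48.7 TPM, above both WT libraries. The 2 experiments differ in strain, in the balancer and in the mothers of the larvae without mir-85. These mothers were heterozygous for F1KO larvae and lacked mir-85 for n4117 larvae. Levels across the 2 experiments were set side by side with no test.

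Of 14 heme and iron genes listed, 11 were found under these names and 10 were tested. None passed by limma, and 6 had values above 0 (59.3% of all genes). By limma 3 had an unadjusted p under 0.05 with F1KO higher (4.00% of all genes), and 2 lay wholly higher (9.55%). The list's median was 0.04, equal to that of all genes. hrg-3, an exported heme chaperone that carries maternal heme to embryos, had 4.23, 3.61 and 2.35 TPM in F1KO larvae, against 3.81, 0.10 and 0.86 TPM in F1het larvae, with overlap through F1het replicate 1 (1.01 ± 0.43, adjusted p = 0.861 by limma). hrg-6, a paralog of hrg-1, had 1.16, 2.00 and 1.73 TPM in F1KO larvae, against 0.67, 0.24 and 0.25 TPM in F1het larvae, with no overlap (0.92 ± 0.31, adjusted p = 0.689 by limma). hrg-4, a heme importer of the intestine, had 1.44, 2.14 and 1.83 TPM in F1KO larvae, against 1.32, 0.65 and 0.75 TPM in F1het larvae, also with no overlap (0.56 ± 0.24, adjusted p = 0.848 by limma). These are low levels, at which the pseudocount of 1 weighs heavily. mrp-5, the heme exporter of the intestine, and the heme-responsive hrg-2 differed by -0.01 ± 0.12 and 0.06 ± 0.17.

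**Figure D3:**
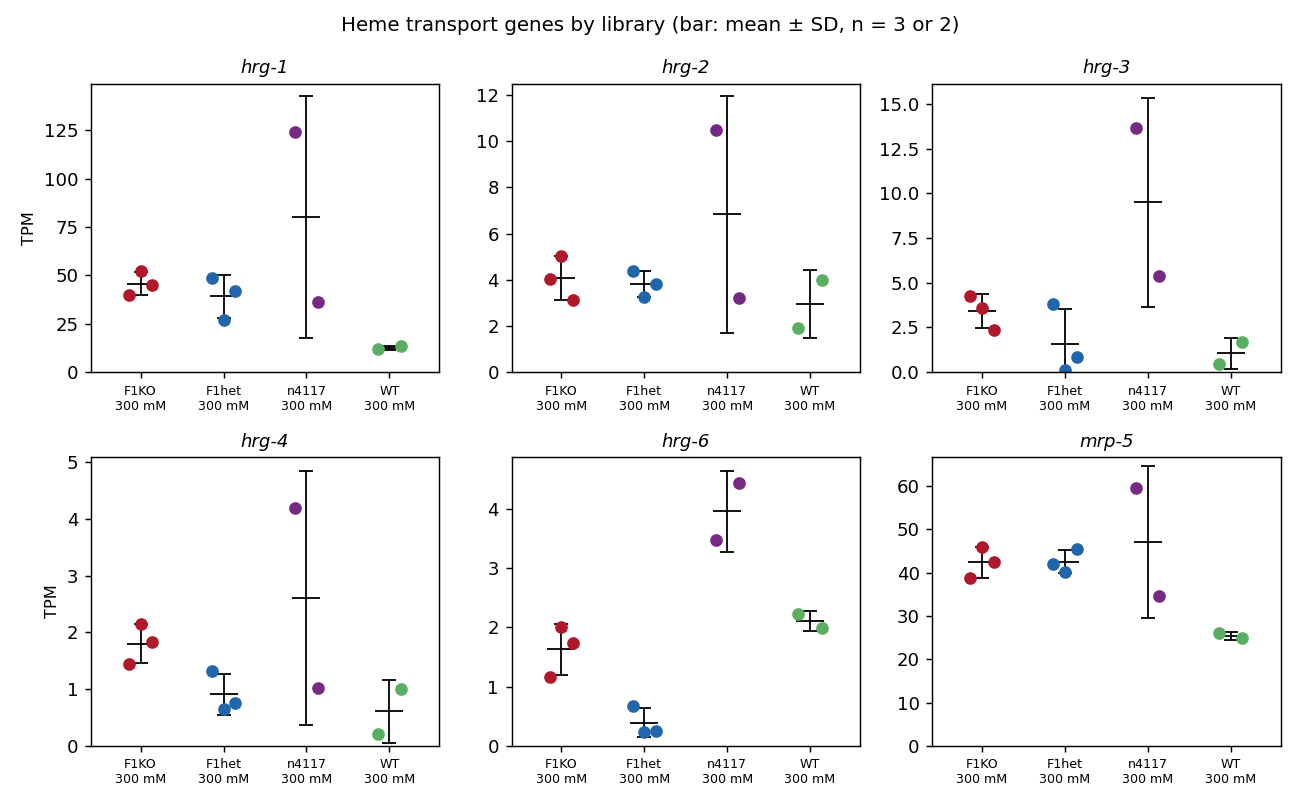
TPM of 6 heme genes in each library at 300 mM (points; bar, mean ± SD) in F1KO and F1het larvae and in the n4117 and WT larvae of another experiment. hrg-1 overlaps between F1KO and F1het, and n4117 replicate 1 stands at 124 TPM.

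Among genes of the cuticle and of the moult most values lay above 0, though no member passed. Of 90 cuticle collagen genes tested, 79 had a value above 0 (59.3% of all genes did), 25 had an unadjusted p under 0.05 with F1KO higher (4.00% of all genes) and 1 with F1KO lower (1.66%). In 20 of the 90 the F1KO libraries lay wholly above the F1het libraries (9.55% of all genes), and in 1 wholly below (4.06%). The median over the list was 0.44, against 0.04 over all genes. Taken by library against the F1het mean, that median was 0.80 in F1KO replicate 1, 0.20 in replicate 2 and 0.50 in replicate 3. At 50 mM the median was 0.18, with 60 of 90 above 0, and across all genes 3.14% had an unadjusted p under 0.05 (1.55% with F1KO lower) and 2.85% lay wholly higher. Without each library in turn the median at 300 mM ran between 0.33 and 0.64, and it was 0.14 where genes of any level entered.

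The collagen with the smallest p was col-145, with 11.2, 8.13 and 13.3 TPM in F1KO larvae, against 1.93, 4.25 and 1.76 TPM in F1het larvae. It did not overlap (1.74 ± 0.30, adjusted p = 0.184 by limma), and at 50 mM it stood at 0.96 to 2.17 TPM in F1KO larvae and at 1.15 to 2.43 TPM in F1het larvae. sqt-3, a collagen gene required for body shape in the first larval cuticle, had 171, 47.8 and 127 TPM in F1KO larvae, against 35.1, 32.5 and 16 TPM in F1het larvae. Its groups did not overlap, with F1KO replicate 2 closest to the F1het libraries (1.89 ± 0.54, adjusted p = 0.52 by limma). At 50 mM sqt-3 had 80.4 to 278 TPM in F1KO larvae and 86.5 to 188 TPM in F1het larvae, and the F1het libraries at 300 mM all lay below those values. col-65 (1.81 ± 0.49), col-77 (1.59 ± 0.44) and col-113 (1.36 ± 0.33) also had no overlap and did not pass. The largest collagen difference was 2.07, at col-165, a gene picked out after its values were seen. col-181 was the collagen on the other side, with 4.1, 7.74 and 8.87 TPM in F1KO larvae, against 10.7, 15.1 and 13.1 TPM in F1het larvae (-0.86 ± 0.30, adjusted p = 0.702 by limma).

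Of 13 moulting genes tested, 10 had a value above 0 (59.3% of all genes), 5 had an unadjusted p under 0.05 with F1KO higher (4.00% of all genes) and 6 lay wholly higher (9.55% of all genes). The median was 0.44. noah-2, a protein of the apical extracellular matrix needed for moulting, had 12.5, 3.34 and 6.6 TPM in F1KO larvae, against 2.20, 1.64 and 0.51 TPM in F1het larvae (1.71 ± 0.59, adjusted p = 0.72 by limma). At 50 mM noah-2 had 9.48 to 35.8 TPM in F1KO larvae and 6.16 to 27.6 TPM in F1het larvae. mlt-8, wrt-1 and wrt-2, which take part in moulting or are hedgehog-related secreted proteins of the epidermis, had differences of 1.24 ± 0.47, 1.21 ± 0.50 and 1.25 ± 0.42 with no overlap. F1KO replicate 2 was the lowest F1KO library for each of noah-2, mlt-8, wrt-1 and wrt-2.

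A pair of lists was added after the values were seen. Of 28 hedgehog-related genes tested (wrt, grd, grl, hog and qua names), 22 had a value above 0 and 12 lay wholly higher in F1KO larvae (9.55% of all genes), with 1 wholly lower (4.06% of all genes) and a median of 0.50. By library that median was 1.05 in F1KO replicate 1, 0.19 in replicate 2 and 0.35 in replicate 3, so replicate 1 was the highest. grl-16 had 21.8, 6.86 and 17.5 TPM in F1KO larvae, against 1.34, 4.15 and 1.47 TPM in F1het larvae (2.27 ± 0.52, adjusted p = 0.397 by limma). grl-21 had 97.3, 46.0 and 82.7 TPM in F1KO larvae, against 19.4, 45.4 and 11.9 TPM in F1het larvae (1.66 ± 0.42), which leaves a gap of under 1 TPM between replicate 2 of the groups. Of 50 abu and pqn genes tested, which encode proteins rich in glutamine and asparagine that include pharyngeal cuticle components, 38 had a value above 0 and 14 lay wholly higher, with none wholly lower and a median of 0.16. abu-14 had 14.6, 7.57 and 12.7 TPM in F1KO larvae, against 2.35, 2.39 and 3.05 TPM in F1het larvae (1.77 ± 0.36, adjusted p = 0.303 by limma). abu-8 (1.73 ± 0.32), pqn-71 (1.35 ± 0.33) and pqn-74 (1.24 ± 0.25) were alike in direction, and none of the 4 passed.

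**Figure D4:**
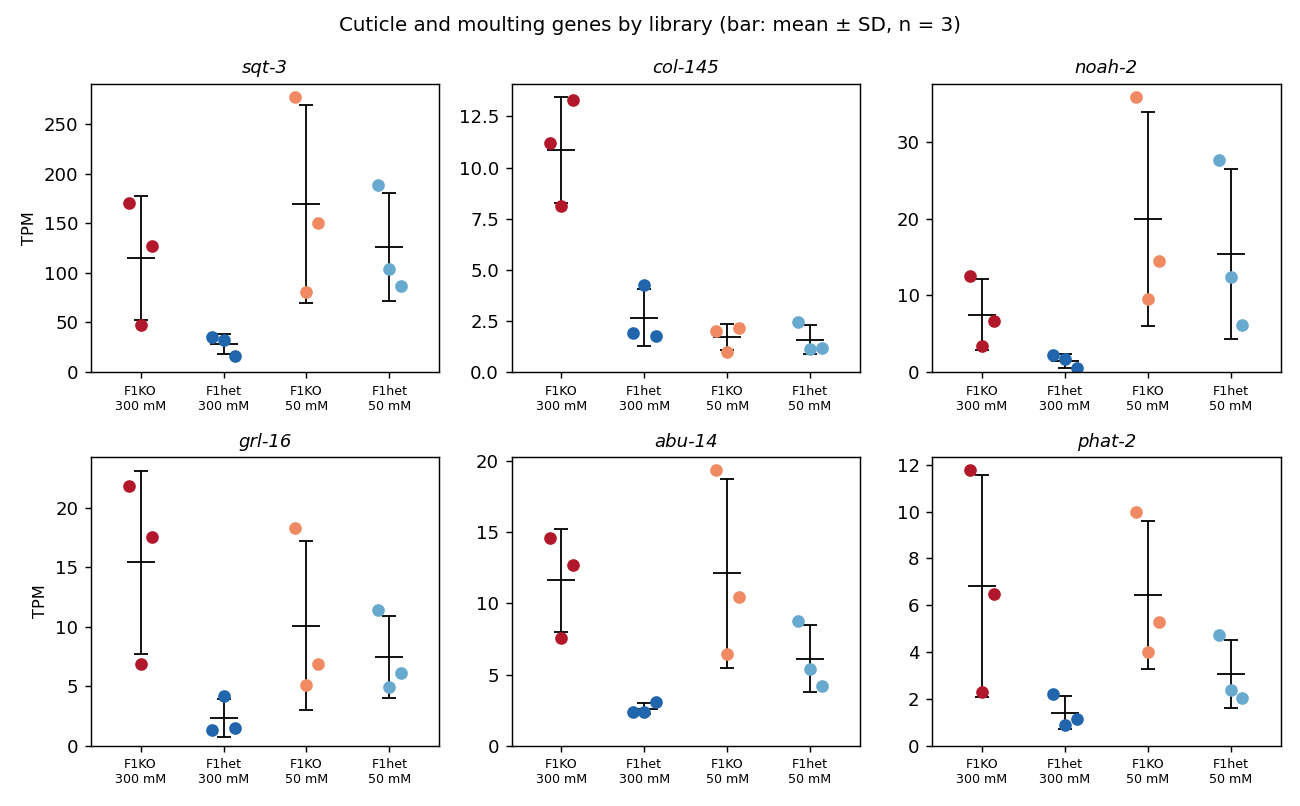
TPM in each library (points; bar, mean ± SD, n = 3) of 6 cuticle and moulting genes in F1KO and F1het larvae at 300 and 50 mM. At 300 mM the F1KO libraries lie above the F1het libraries in each panel, with F1KO replicate 2 lowest, and at 50 mM the groups overlap in all panels, and none of these 6 genes passed at either level.

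Markers of cell types were compared in the same way, and no member of any of these lists passed. For the pharynx, 13 of 14 had a value above 0 (59.3% of all genes) and 3 lay wholly higher (9.55% of all genes). The median was 0.32 (-0.49 at 50 mM). phat-2, a mucin-like gene of the pharyngeal gland, had 11.76, 2.30 and 6.46 TPM in F1KO larvae, against 2.22, 0.87 and 1.15 TPM in F1het larvae (1.53 ± 0.47, adjusted p = 0.582 by limma). phat-5, phat-4 and phat-1 had differences of 1.26 ± 0.40, 1.15 ± 0.35 and 0.76 ± 0.27, with overlap in phat-5. The other members of this family in the list, phat-3 and phat-6, differed by -0.003 and 0.04, both with overlap. The summed level of the pharynx list was 739 to 1238 TPM in F1KO larvae, against 527 to 901 TPM in F1het larvae, which overlap.

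Hypodermis markers summed to 203 to 321 TPM in F1KO larvae, against 143 to 197 TPM in F1het larvae, sqt-3 included, and 6 of 8 had a value above 0, with a median of 0.09. The hypodermis transcription factor elt-3 differed by 0.09 ± 0.10, with overlap. Intestine markers summed to 3769 to 4044 TPM in F1KO larvae, against 3268 to 3885 TPM in F1het larvae (median 0.06, 9 of 14 above 0). act-5, the actin of the intestinal brush border, had 435, 284 and 293 TPM in F1KO larvae, against 243, 194 and 239 TPM in F1het larvae (0.56 ± 0.24), and vha-6, an intestinal proton pump subunit, differed by 0.47 ± 0.24, both with no overlap. The cathepsin B-like protease gene cpr-6 was lower in mean, with 109, 163 and 143 TPM in F1KO larvae, against 171, 159 and 206 TPM in F1het larvae, and the groups overlapped (-0.38 ± 0.20). Body wall muscle (median 0.15, 12 of 13 above 0) and neuron markers (median 0.09, 10 of 14 above 0) had no member that passed. F1KO lay wholly higher in 5 of 14 neuron, 4 of 14 intestine, 2 of 13 body wall muscle and 2 of 8 hypodermis markers (9.55% of all genes). It lay wholly lower in 1 neuron and 1 body wall muscle marker (4.06% of all genes). Over all genes, 59.3% had a value above 0. The part of cell composition in any difference was not tested.

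Maternal and germ cell transcripts had 14 of 14 tested members above 0 (59.3% of all genes). The median was 0.49 (0.62 at 50 mM, 13 of 14 above 0). Their summed level was 62.1, 45.1 and 73.97 TPM in F1KO larvae, against 33.9, 38.5 and 48.0 TPM in F1het larvae, which overlap between F1KO replicate 2 and F1het replicate 3. glh-1, a germ granule helicase, had 6.69, 5.00 and 5.53 TPM in F1KO larvae, against 4.03, 3.37 and 4.47 TPM in F1het larvae (0.44 ± 0.18). mex-3, a maternal RNA-binding protein, had 21.4, 21.6 and 21.2 TPM in F1KO larvae, against 17.9, 19.4 and 17.2 TPM in F1het larvae (0.23 ± 0.11). Both had no overlap, and neither passed (adjusted p of 0.814 and 0.879 by limma). rme-2, the yolk receptor of the oocyte, overlapped (0.23 ± 0.30), and sperm genes summed to 5.05 to 9.11 TPM in F1KO larvae, against 6.13 to 8.51 TPM in F1het larvae.

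No stress gene passed. Of 15 genes of the osmotic response, 12 had a value above 0 (59.3% of all genes) and 3 lay wholly higher (9.55%). Their median was 0.20 (-0.13 at 50 mM). gpdh-1, a glycerol synthesis enzyme induced by salt, had 2.22, 2.01 and 2.14 TPM in F1KO larvae, against 1.13, 2.51 and 1.25 TPM in F1het larvae (0.29 ± 0.21), and its paralog gpdh-2 had 63.1, 43.1 and 40.2 TPM in F1KO larvae, against 46.1, 34 and 22.8 TPM in F1het larvae (0.52 ± 0.26). The inositol transporter hmit-1.1, another salt-responsive gene, stood at 0.63 to 2.10 TPM in F1KO larvae and 0.40 to 0.84 TPM in F1het larvae, against 43.01 to 98.5 TPM in the n4117 and WT larvae of the other experiment at the same 300 mM. tsp-1, a tetraspanin, had 43, 31.5 and 24.8 TPM in F1KO larvae, against 21.5, 15.3 and 23.02 TPM in F1het larvae (0.69 ± 0.26, adjusted p = 0.768 by limma), and at 50 mM the difference was 0.68.

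Of 17 oxidative stress genes, 13 had a value above 0 (59.3% of all genes), with a median of 0.14. In F1KO larvae 5 lay wholly higher (9.55% of all genes) and 1 wholly lower (4.06%). The member wholly lower was trxr-1 (-0.11), and the lowest value was that of mtl-2 (-0.64, with overlap). sod-1, the cytosolic superoxide dismutase, had 271, 215 and 227 TPM in F1KO larvae, against 178, 168 and 158 TPM in F1het larvae (0.49 ± 0.16, adjusted p = 0.679 by limma). The catalase gene ctl-3 (0.57 ± 0.20) and the mitochondrial superoxide dismutase gene sod-3 (0.97 ± 0.44) also had no overlap, while gst-4, a glutathione transferase, overlapped at 1.01 ± 0.45. At 50 mM the difference was 0.09 for sod-1, -0.05 for ctl-3 and -0.04 for sod-3. The heat shock genes hsp-16.1 (48.2, 35.1 and 56.2 TPM in F1KO larvae, against 13.2, 87.7 and 16.05 TPM in F1het larvae) and F44E5.4 were set apart by F1het replicate 2, which was the highest of the 6 libraries for both. Among 17 immune genes 14 had a value above 0 (median 0.28), and the lysozyme gene lys-2 had 27.4, 18.8 and 19.4 TPM in F1KO larvae, against 10.7, 7.64 and 15.6 TPM in F1het larvae (0.92 ± 0.36, adjusted p = 0.798 by limma).

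Histones and ribosomal proteins were the lists with most values below 0. Of 75 histone genes, 54 had a value below 0 (59.3% of all genes had one above 0) and 19 lay wholly lower in F1KO larvae (4.06% of all genes), with a median of -0.21 (0.11 at 50 mM) and none passing. By library the median was 0.01 in F1KO replicate 1, -0.23 in replicate 2 and -0.24 in replicate 3. Many histone genes are near-identical copies with the same values in the table, so the 75 are not separate measurements. his-73, a histone H3 gene, had 2.86, 3.47 and 1.46 TPM in F1KO larvae, against 3.93, 4.08 and 4.09 TPM in F1het larvae (-0.53 ± 0.23). Of 74 cytosolic ribosomal protein genes, 72 had a value below 0, with a median of -0.09 and 6 wholly lower, and rps-1 had 3474, 3445 and 3229 TPM in F1KO larvae, against 3975, 3481 and 3933 TPM in F1het larvae (-0.16 ± 0.12). All 12 genes of the mitochondrial genome had a value above 0 (median 0.19, 0.31 at 50 mM), with overlap in each. By library the median was 0.36 in F1KO replicates 1 and 2 and -0.11 in replicate 3, which lay on the other side of 0. The 12 microRNA pathway genes had a median of 0.02.

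**Figure D5:**
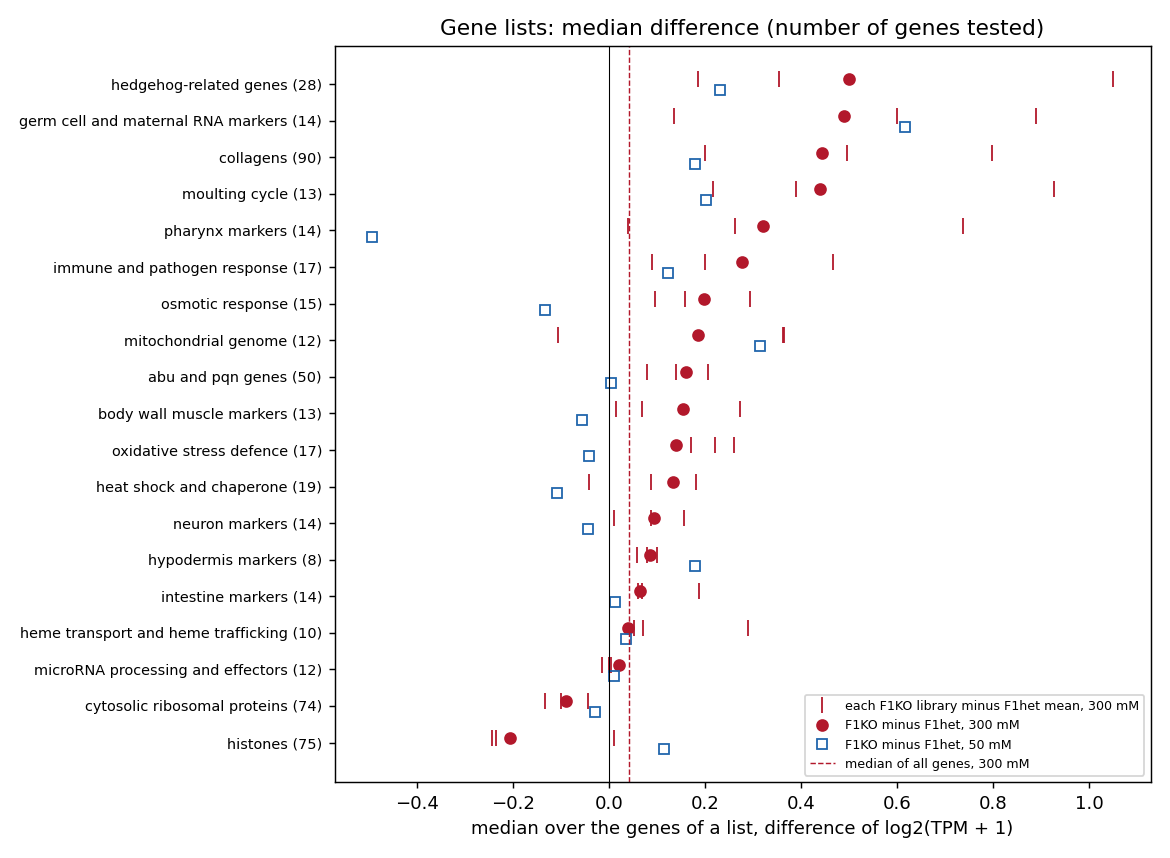
Median difference of log2(TPM + 1), F1KO minus F1het, over the tested genes of each list with at least 8 of them, at 300 mM (filled circles; ticks, each F1KO library against the F1het mean) and at 50 mM (open squares). Furthest to the right of the median of all genes (0.04) lie hedgehog-related genes (0.50), germ cell and maternal RNA markers (0.49), collagens (0.44) and moulting genes (0.44). Pharynx markers (0.32) and immune genes (0.28) follow. Histones (-0.21) lie furthest to its left.

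Of the other genes named by rule, the higher ones were of low level. T25E4.1 had 9.01, 5.27 and 9.13 TPM in F1KO larvae, against 2.20, 1.88 and 1.12 TPM in F1het larvae (1.67 ± 0.30, adjusted p = 0.184 by limma), and Y47D3B.6 had 12.1, 4.83 and 11.28 TPM in F1KO larvae, against 2.32, 1.77 and 1.60 TPM in F1het larvae (1.76 ± 0.32, adjusted p = 0.195). Y47D3B.6, which overlaps the antisense sbp-1, passed without F1KO replicate 2 (2.14, adjusted p = 0.0459). T06E4.14 (1.93 ± 0.39), W08E12.5 (1.49 ± 0.30), B0403.5 (1.14 ± 0.23) and the noncoding T23F2.11 (2.47 ± 0.50) had no overlap and adjusted p between 0.303 and 0.311.

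On the lower side, the lysosomal lipase gene lipl-5 had 11.02, 19.9 and 23.04 TPM in F1KO larvae, against 34.2, 43.8 and 64.1 TPM in F1het larvae (-1.36 ± 0.31, adjusted p = 0.387 by limma). The groups did not overlap, and at 50 mM lipl-5 had 14.4 to 25.8 TPM in F1KO larvae, against 29.6 to 40.4 TPM in F1het larvae, also with no overlap. gale-1, which encodes UDP-galactose epimerase, had 20.97, 23.6 and 22.3 TPM in F1KO larvae, against 34.04, 30.9 and 50.4 TPM in F1het larvae (-0.73 ± 0.18, adjusted p = 0.423), with a difference of 0.03 at 50 mM. F49H6.5 (-1.3 ± 0.29), the chemoreceptor gene sri-31 (-1.07 ± 0.22), K05F6.10 (-0.97 ± 0.24), gadr-5 (-0.79 ± 0.20) and Y39A1A.20 (-0.57 ± 0.14) had no overlap and adjusted p between 0.323 and 0.461. The noncoding T28B11.3 had 6.87, 7.31 and 10.7 TPM in F1KO larvae, against 17.8, 16.3 and 13.97 TPM in F1het larvae (-0.89 ± 0.16, adjusted p = 0.184), and Y73B3A.23 had 124, 91.1 and 111 TPM in F1KO larvae, against 193, 161 and 177 TPM in F1het larvae (-0.71 ± 0.14, adjusted p = 0.275). T28B11.3 lies within the protein-coding T28B11.1.

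Whether the genotype difference depended on NaCl was tested directly. No gene passed (limma, 0 of 15454; 369 had an unadjusted p under 0.05), and at 50 mM 1 gene rose (0.00647%) and 2 fell (0.0194% of the genes tested in all), of which pes-10 was the 1 shared with 300 mM. The other 2 were noncoding and of low level. C54H2.7 had 2.83, 3.52 and 5.9 TPM in F1KO larvae at 50 mM and was listed at 0 in the other libraries of both F1 genotypes, and T18D3.10 had 2.81, 2.72 and 3.41 TPM in F1het larvae at 50 mM and at most 0.55 TPM in the others. Each entered the test only through the group in which it is high, so each had to differ. The smallest p among genes of at least 5 TPM included T28B11.3, whose difference at 50 mM was 0.01, and pud-1.2, with 2.62, 7.64 and 2.92 TPM in F1KO larvae, against 14.4, 8.14 and 18.3 TPM in F1het larvae at 300 mM. At 50 mM pud-1.2 had 26.6, 9.34 and 19.6 TPM in F1KO larvae, against 6.6, 10.2 and 4.01 TPM in F1het larvae, where the groups overlap. pud-1.2 has a near-identical copy, pud-1.1, so its values are uncertain. The small nucleolar RNA D1046.6 had 17.4, 24.65 and 16.67 TPM in F1KO larvae, against 28.84, 26.26 and 32.22 TPM in F1het larvae at 300 mM (-0.57 ± 0.24). At 50 mM it had 52.77, 53.16 and 38.44 TPM in F1KO larvae, against 29.23, 14.76 and 16.53 TPM in F1het larvae (1.26 ± 0.24). The groups did not overlap at either level and stood in opposite order, and the difference of the differences did not pass (-1.83 ± 0.34, adjusted p = 0.577 by limma). The noncoding C29A12.17, R04F11.7 and F43C9.7 were the others.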

How the data were processed

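The authors deposited 1 table of TPM for all genes, with 30470 lines, of which 28048 IDs matched a symbol and 11 names turned into dates took the symbol of their ID. Per the labels' protocols, RNA above 200 nucleotides from synchronised, non-starved L1 larvae was used. The submitters' processing notes name ce11, WBcel235 and bedtools; which aligner and counting program were used is not given in the sources used here. Positions are from the Ensembl annotation of WBcel235. Values of 20 libraries were used.

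Differences of log2(TPM + 1) were fitted in R 4.3.3 by limma 3.58.1, allowing a variance trend, over the 12 libraries of F1KO and F1het at 50 and 300 mM, for genes that reached 1 TPM in 3 or more libraries, two-sided. A second fit over 20 libraries (at least 1 TPM in at least 2) added n4117 and WT. The fit was tested on simulated data. Genes named followed a rule: up to 12 per direction, filled by smallest p among genes of at least 5 TPM with no overlap, up to 4 per list, and genes fixed by name. Other genes named were chosen after their values were seen. The members and lists were chosen with earlier results of these data known. No set test was run. Depth is unknown, so no counting interval can be given.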

Additional observations from a re-analysis of the deposited data

Results flagged for a closer look

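In 7 of 17039 genes (0.0411%; 842 at an unadjusted p under 0.05) the difference F1KO minus F1het differed from the difference n4117 minus WT at 300 mM, by a limma test of the difference itself over both experiments, and these are the results singled out here. Their values, as the first difference less the second on the log2 scale, were -4.02 ± 0.47 (SE) for pes-10 (adjusted p = 0.00128) and -3.34 ± 0.46 for s65cGFP (adjusted p = 0.00699), the reporter line and the gene whose promoter drives it. Neither n4117 nor WT larvae carry the balancer with this reporter. Both values therefore restate the difference between F1KO and F1het larvae and are no separate result. The chemoreceptor gene srw-85 gave 4.29 ± 0.34 (adjusted p = 1.68e-05) and R11H6.5 gave 4.03 ± 0.32 (adjusted p = 1.68e-05).

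For srw-85 the WT libraries stood above all others, and for R11H6.5 the n4117 libraries were the lowest and the WT libraries the highest. srw-85 had 2.54, 1.19 and 1.71 TPM in F1KO larvae and 2.97, 3.23 and 2.86 TPM in F1het larvae, and 2.13 and 2.13 TPM in n4117 larvae, against 84.7 and 91.2 TPM in WT larvae. R11H6.5 had 5.12 to 6.49 TPM in F1KO larvae and 4.15 to 7.07 TPM in F1het larvae, and 0.03 and 0.49 TPM in n4117 larvae, against 14.4 and 19.7 TPM in WT larvae. The noncoding C14F11.13 gave 3.64 ± 0.47 (adjusted p = 0.00379), C23H4.11 gave 2.13 ± 0.26 (adjusted p = 0.00168) and F01E11.16 gave -2.64 ± 0.23 (adjusted p = 4.78e-05). They are shorter than 150 bases and listed at 0 in at least 1 whole group. F01E11.16 had 4.9 and 5.62 TPM in the n4117 libraries at 300 mM and was listed at 0 in the other libraries of the fit. C23H4.11 was likewise above 0 only in the F1KO libraries at 300 mM. Each entered the test through the group in which it is high and had to differ. Without n4117 replicate 1 or 2 the count became 22 or 15, with 6 of the 7 kept in each, and without WT replicate 2 it became 21 with all 7 kept.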

How the results depend on the processing

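Counts of called genes depended on the settings. For F1KO against F1het at 300 mM the count was 4, against 9 with no filter, 2 with at least 5 TPM, 2 in a fit of only the 6 libraries at 300 mM, and 2 to 8 without 1 library (8 without F1het replicate 2, 2 without F1KO replicate 1). pes-10 and s65cGFP passed under each of the 13 alternatives run, with differences of -4.33 to -3.87 and -3.46 to -3.13, and hrg-1 and F49E12.8 under none. At 50 mM the count was 3, against 5 with no filter, 1 with at least 5 TPM, 0 in a fit of only those libraries (limma, 342 at an unadjusted p under 0.05) and 0 to 2 without 1 library. For the dependence on NaCl it was 0 (369 at an unadjusted p under 0.05), against 1 with a pseudocount of 0.1, 6 with no filter and 0 to 1 without 1 library. For n4117 against WT it was 3, against 20 with no filter, 6 with rescaled libraries and 6 to 75 without 1 library (75 without n4117 replicate 2), where a lone library of a group is assumed to vary like the others. For the difference between experiments it was 7, against 13 with no filter, 4 with at least 5 TPM and 7 to 22 without 1 library.

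Whether replicate numbers pair the samples is open. The deviations of same-numbered libraries correlated at 0.269, 0.0721 and 0.0960 at 300 mM, and at 0.0548, 0.209 and 0.266 at 50 mM. Those of differently numbered libraries ran from -0.209 to 0.112 at 300 mM and from -0.337 to 0.178 at 50 mM. The main fit used no pairing, since not all same-numbered values were over a cut of 0.1. With a replicate block the count at 300 mM was 7, with F22B7.9 and lipl-5 added (adjusted p = 0.00998 for both by limma). With the replicate block within NaCl level it was 5 at 300 mM and 0 at 50 mM (778 at an unadjusted p under 0.05).

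Among the genes named, signs turned without 1 library in 3 genes near 0, where the difference ran between -0.0645 and 0.0539 for mrp-5, between -0.0762 and 0.20 for hrg-2 and between -0.38 and 0.0733 for F49E12.9. The lists of genes with a mir-85 seed match, and their stricter version, could not be made and were not run.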

Other observations

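Several of the largest differences that did not pass belonged to abundant genes, chosen here after their values were seen. cut-2, which encodes a cuticlin of the cuticle, had 161, 43.6 and 137 TPM in F1KO larvae, against 9.62, 37.1 and 14.9 TPM in F1het larvae (2.42, adjusted p = 0.402 by limma). F41F3.3 had 246, 73.8 and 221 TPM in F1KO larvae, against 19.1, 48.2 and 9.05 TPM in F1het larvae (2.90, adjusted p = 0.366). Y47D7A.13 (2.54), C02E7.6 (2.38), ZK180.5 (2.34) and C02E7.7 (2.27) had the same order. For each of these 6 genes the groups did not overlap, F1KO replicate 2 was the lowest of its group and F1het replicate 2 the highest of its own.

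T22F3.11 had 2.57, 2.08 and 2.58 TPM in F1KO larvae, against 142, 2.20 and 54.8 TPM in F1het larvae (-3.11, adjusted p = 0.649 by limma). It passed without F1het replicate 2, the library near the F1KO level (-4.72, adjusted p = 0.000852).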
